A study of Mus musculus with 2 samples.

Results

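The 8 genes described here encode proteins of elastic fibres and of the microfibrils on which they form: Eln, Fbn1, Fbln1, Fbln2, Fbln5, Mfap4, Mfap5 and Emilin1. They were taken by name from the count tables, where all 8 were among the 21745 genes listed in both, and were followed in fibroblasts, mural cells, endothelial cells and mesothelial cells of infarcted and sham-operated mouse hearts. The hearts came from male C57BL6/J wild-type mice aged 8 to 10 weeks, collected 14 days after surgery, and single cells were profiled by Drop-seq, in which every captured mRNA receives the barcode of its cell and a molecular tag, so that copied molecules are counted once (1 UMI each). In the MI group the left anterior descending coronary artery was tied off; in the sham group the same operation was done but the suture was not tightened. The MI library was made from a single heart (1 mouse), whereas 4 hearts were pooled for the sham library. Each group was thus 1 library. No difference between them had a replicate check, no test between conditions was possible, and every interval given is a 95% interval of counting error within these libraries.

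Elastic fibres give arteries, valves and other stretching tissues their recoil. Cells secrete the soluble precursor tropoelastin, which is laid down on a scaffold of fibrillin microfibrils, guided by fibulins and other bridging glycoproteins, and is then crosslinked by enzymes of the lysyl oxidase family. In the adult heart the fibres lie mainly in coronary and larger vessel walls, valves, endocardium and epicardium, and the microfibrils also hold latent TGF-beta in the matrix.

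The MI data held 8555 barcodes with a median of 2466 UMIs, and the sham data 6337 barcodes with a median of 1424. Of these, 8294 MI and 5971 sham cells were kept after barcodes over 25% mitochondrial UMIs and called doublets were removed. Cells were assigned to a class where at least 3 of its marker genes had a UMI and these led every other class by at least 2 markers, with none of the 8 genes among the markers. This gave 2813 MI and 1785 sham fibroblasts, 111 and 68 mural cells (pericytes and vascular smooth muscle), 389 and 2090 endothelial cells, and 85 and 72 mesothelial cells of the heart's outer lining. All 10 markers were found in at least 10% of cells in each of these classes, except for 1 of the fibroblast markers in sham. Median UMIs per cell were 5353 in MI and 1503 in sham fibroblasts, 6445 and 1057 in mural, 3395 and 1357.5 in endothelial, and 5858 and 1942.5 in mesothelial cells. The libraries shared 5 barcodes.

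The MI and sham cells mostly came from different clusters of an unsupervised clustering in fibroblasts and mesothelial cells. Endothelial cells did so in part, with 144 MI and 133 sham cells in a shared cluster. Of the MI mesothelial cells, 82 of 85 lay in a cluster that also held 508 MI fibroblasts, whereas 67 of the 72 sham mesothelial cells lay in a cluster of their own. Of the MI mural cells, 70 shared a cluster with 66 of the 68 sham mural cells, and 33 lay in a cluster together with 339 MI fibroblasts. The median cell carried 3 of the 10 fibroblast markers in MI mural, 4 in MI mesothelial and 2 in MI endothelial cells, against 1, 2 and 0 in the sham cells of these classes. Summed over the 10 fibroblast markers, MI endothelial cells stood at 1759 CPM (UMIs per 1e6 UMIs of the class) and sham endothelial cells at 448 CPM. Lymphocytes, which make little matrix and served as the measure of free RNA, stood at 708 CPM in MI (132 cells, 1 marker at 0) and at 137 CPM in sham (44 cells, 8 markers at 0). The part of fibroblast RNA in the values of the other classes was not tested beyond the comparisons given with each result.

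In the mouse genome (GRCm38, GENCODE vM21) all 8 are protein-coding genes, on 6 chromosomes. Eln (ENSMUSG00000029675.12) lies at chr5:134702593-134747323 on the minus strand, with up to 37 exons in a transcript, and Emilin1 (ENSMUSG00000029163.9) at chr5:30913402-30921277 on the plus strand. Fbn1 (ENSMUSG00000027204.13) is the longest, at chr2:125300594-125507993 on the minus strand, with up to 66 exons. Fbln1 (ENSMUSG00000006369.14) lies at chr15:85205949-85286535, Fbln2 (ENSMUSG00000064080.12) at chr6:91212455-91272540 and Fbln5 (ENSMUSG00000021186.9) at chr12:101746565-101819055, of which Fbln5 is on the minus strand. Mfap4 (ENSMUSG00000042436.12) lies at chr11:61485431-61488900 and Mfap5 (ENSMUSG00000030116.14) at chr6:122505845-122529290, both on the plus strand. Eln, Fbn1 and Mfap4 each overlap a gene on the opposite strand (Gm30003, Gm9913 and Mapk7), and no source used here says whether the counting used strand.

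RefSeq promoter windows were on hand for 5 of the 8 genes, Fbn1, Emilin1, Fbln1, Fbln2 and Fbln5, and not for Eln, Mfap4 and Mfap5. The 250 bases before the annotated start are shown for the 2 fibulins with opposite ratios in fibroblasts below, Fbln1 (chr15:85205699-85205948, plus strand) and Fbln5 (chr12:101819120-101819369, minus strand, GRCm38.p6), since neither window overlaps a gene. Capitals mark any match, on either strand, to 4 motifs: TATAAA of core promoters, GGGCGG of Sp1-type factors, GGAATG of TEAD factors and TGANTCA of AP-1 factors, none of which overlap one another.
Fbln1: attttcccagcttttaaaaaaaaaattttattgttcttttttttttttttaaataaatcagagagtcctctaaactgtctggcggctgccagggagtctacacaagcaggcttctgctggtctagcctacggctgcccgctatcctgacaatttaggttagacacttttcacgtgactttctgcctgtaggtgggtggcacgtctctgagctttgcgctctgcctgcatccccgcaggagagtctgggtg
Fbln5: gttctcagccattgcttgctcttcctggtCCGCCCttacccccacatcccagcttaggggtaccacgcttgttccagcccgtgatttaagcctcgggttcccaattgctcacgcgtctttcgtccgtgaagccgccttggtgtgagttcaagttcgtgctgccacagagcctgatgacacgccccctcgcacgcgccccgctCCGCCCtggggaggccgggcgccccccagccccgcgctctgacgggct
The Fbln5 window holds 2 matches to GGGCGG, which stands in 32.7% of the 32851 RefSeq windows of this length, and the Fbln1 window holds no match to any of the 4. TATAAA stands in 12.4%, GGAATG in 12.6% and TGANTCA in 6.75% of windows. The Fbln5 window is 65.2% and the Fbln1 window 46.4% G and C, against a median of 52.4% over all windows. A match describes these letters and says nothing about a bound factor. Each gene has a second RefSeq start, whose window overlaps exons of the gene and is not shown. The second Fbln1 window holds 1 match to GGGCGG at 62.4% G and C, and the second Fbln5 window no match at 49.6%, so the contrast holds only for the starts shown.

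Fibroblasts held most of the mRNA of each of the 8 genes in both libraries. Their share of a gene's UMIs in kept cells ran from 66.7% (Eln) to 95.4% (Mfap4) in MI, where fibroblasts held 54.8% of the UMIs of all genes. In sham it ran from 56.0% (Eln) to 94.2% (Mfap4), against 29.0% for all genes. Endothelial cells held the next largest share of several genes in sham, with 37.6% of Eln, 22.0% of Emilin1, 18.2% of Fbln2 and 15.2% of Fbln5 UMIs. In MI their shares were 16.6%, 6.38%, 2.92% and 4.78%, in a library where endothelial cells were 4.69% of kept cells against 35.0% in sham. Mesothelial cells held 6.18% of Fbln1 UMIs in MI and 6.65% in sham. Macrophages and monocytes, the largest MI class with 3934 cells, held between 1.23% (Eln) and 4.29% (Emilin1) of a gene's MI UMIs.

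**Figure D1:**
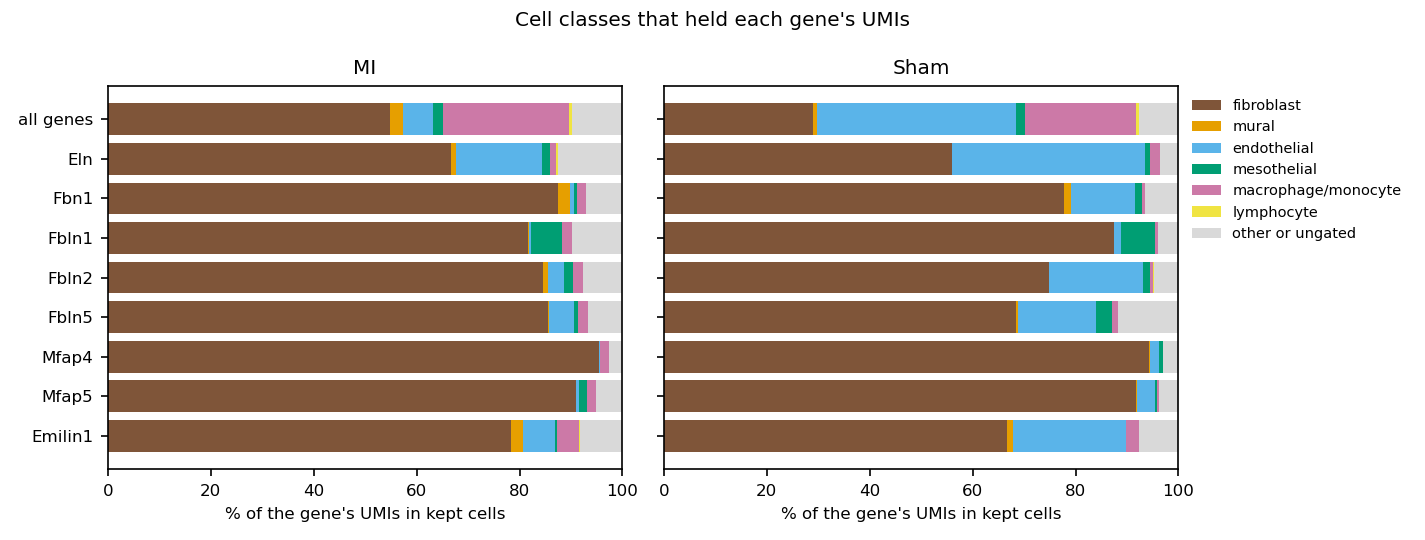
Share of each gene's UMIs in kept cells (horizontal axis, %) that lay in each gated class, for MI (left) and sham (right), with all genes together as the top bar. Fibroblasts hold the largest part of every bar of the 8 genes, from 66.7% to 95.4% in MI and from 56.0% to 94.2% in sham, and the endothelial part is wider in sham.

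Within each library the order of the classes differed from gene to gene. Fbn1 stood highest in fibroblasts (944 CPM in MI, 345 in sham), then in mural cells (530 and 189), then in mesothelial cells (216 and 95.2), and lowest in endothelial cells (68.6 and 41.5); the sham mural and mesothelial levels did not differ beyond counting error. Fbln1 stood highest in mesothelial cells, at 212 CPM (176 to 253) in MI against 974 CPM (835 to 1130.1) in sham, above fibroblasts in both libraries. Mfap4 was nearly limited to fibroblasts: mural, endothelial and mesothelial cells together gave 12 UMIs in MI and 8 in sham, against 4363 and 277 in fibroblasts. Eln stood highest in MI in endothelial cells (57.4 CPM, against 24.5 in fibroblasts) and in sham in fibroblasts (20.2 CPM, against 10.2 in endothelial cells).

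**Figure D2:**
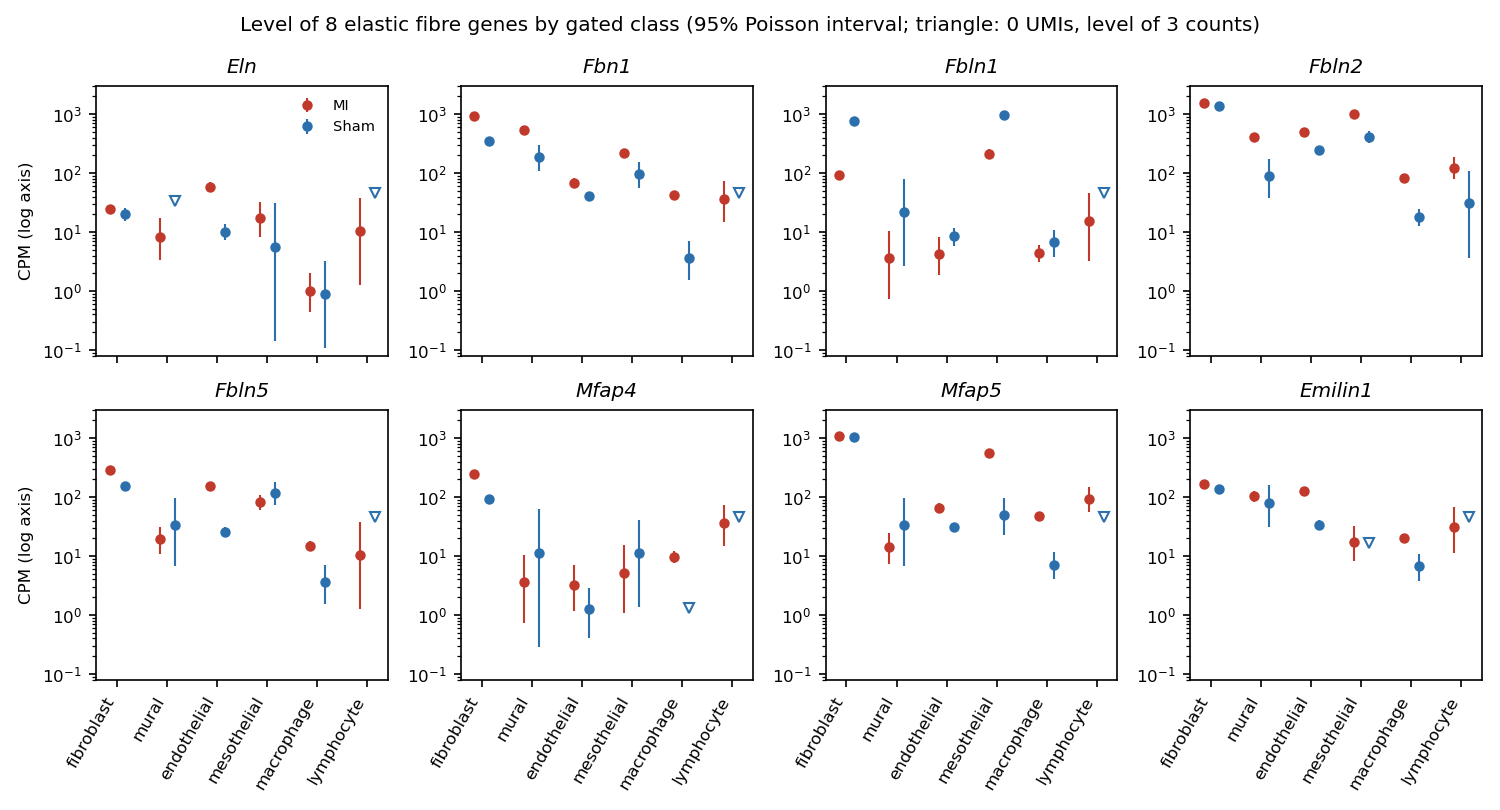
Level of each gene (vertical log axis, CPM of the class total) in 6 gated classes of the MI (red) and sham (blue) libraries; each point is 1 library with its 95% Poisson interval, and a triangle marks 0 UMIs, drawn at the level of 3 counts. Fbln1 sits lower in MI than in sham in fibroblasts (91.8 against 757 CPM) and mesothelial cells (212 against 974 CPM), while Fbn1 sits higher in MI in all 4 classes.

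In fibroblasts, Fbn1 and Mfap4 were higher in MI than in sham, Fbln1 was far lower, and Eln, Fbln2, Mfap5 and Emilin1 stayed within 1.22-fold. All 8 genes had at least 20 UMIs in this class; 2 were at least 2-fold higher and 1 at least 2-fold lower in MI. Among all 13665 genes with at least 20 UMIs, 13.2% were at least 2-fold higher and 20.5% at least 2-fold lower. The median log2 ratio of the 8 genes was 0.27 and that of all genes -0.22. Scaling by the median of gene ratios in place of total UMIs raises every fibroblast ratio by 0.46 (log2), and the split over all genes then turns to 22.0% higher and 11.6% lower, with 3 of the 8 genes higher and 1 lower.

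Eln encodes tropoelastin, the precursor of the elastic core. It gave 434 UMIs in MI and 61 in sham fibroblasts, or 24.5 CPM (22.3 to 27.0) and 20.2 CPM (15.4 to 25.9). The log2 ratio of 0.28 (-0.11 to 0.69) did not exceed counting error. It was -0.51 after the level in lymphocytes was subtracted from each class. That step rests on 2 Eln UMIs in MI lymphocytes and 0 in sham lymphocytes, where 0 allows up to 56.3 CPM. It lowered the MI level alone and so could only lower the ratio.

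Among the microfibril genes, Fbn1 encodes the main fibrillin of adult microfibrils. It had 944 CPM (929.5 to 958) in MI against 345 CPM (325 to 367) in sham fibroblasts, which is a log2 ratio of 1.45 (1.36 to 1.54). Mfap4, a fibrinogen-like glycoprotein that binds fibrillin and tropoelastin, stood at 247 CPM (239 to 254) and 91.6 CPM (81.2 to 103), a log2 ratio of 1.43 (1.25 to 1.61). Both were thus about as much higher in MI, while Mfap5, which encodes a small glycoprotein of the microfibril surface, was nearly level. It stood at 1087 CPM (1071 to 1102) and 1046 CPM (1009 to 1083), a log2 ratio of 0.06 (0.00 to 0.11). The ratio was -0.06 with cells classed by cluster. It was -0.07 after the lymphocyte level was subtracted (18 UMIs in MI and 0 in sham lymphocytes).

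The 3 fibulins went separate ways. Fbln1, a fibulin of basement membranes and elastic fibres, had 91.8 CPM (87.4 to 96.4) in MI against 757 CPM (726 to 788) in sham fibroblasts, 8.24-fold lower in MI, with a log2 ratio of -3.04 (-3.14 to -2.95). Fbln5, which tethers tropoelastin to cells and microfibrils, stood at 290 CPM (282 to 298) and 154 CPM (140 to 168), a log2 ratio of 0.92 (0.78 to 1.06), just inside 2-fold. Fbln2 stood at 1552 CPM (1534 to 1571) and 1375 CPM (1334 to 1418), a log2 ratio of 0.17 (0.13 to 0.22). Fbln1 was thus the only one of the 3 that was lower in MI. Emilin1, found where elastin meets microfibrils, stood at 165 CPM (159 to 171) and 138 CPM (125 to 152), a log2 ratio of 0.26 (0.11 to 0.41). The Emilin1 ratio was -0.04 after the lymphocyte level was subtracted (6 UMIs in MI and 0 in sham lymphocytes).

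Counted per cell, the picture shifts with the UMIs per fibroblast, whose median was 3.56 times as high in MI. Fbn1 gave 5.93 UMIs per MI fibroblast and 0.585 per sham fibroblast, and Fbln2 9.76 and 2.33. Fbln1 was still lower per cell in MI, with 0.577 UMIs against 1.28. It was the only one of the 8 genes that was lower on both the CPM and the per-cell scale. How far the depth of each library and the RNA content of its cells make up the gap in UMIs per cell cannot be told apart.

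**Figure D3:**
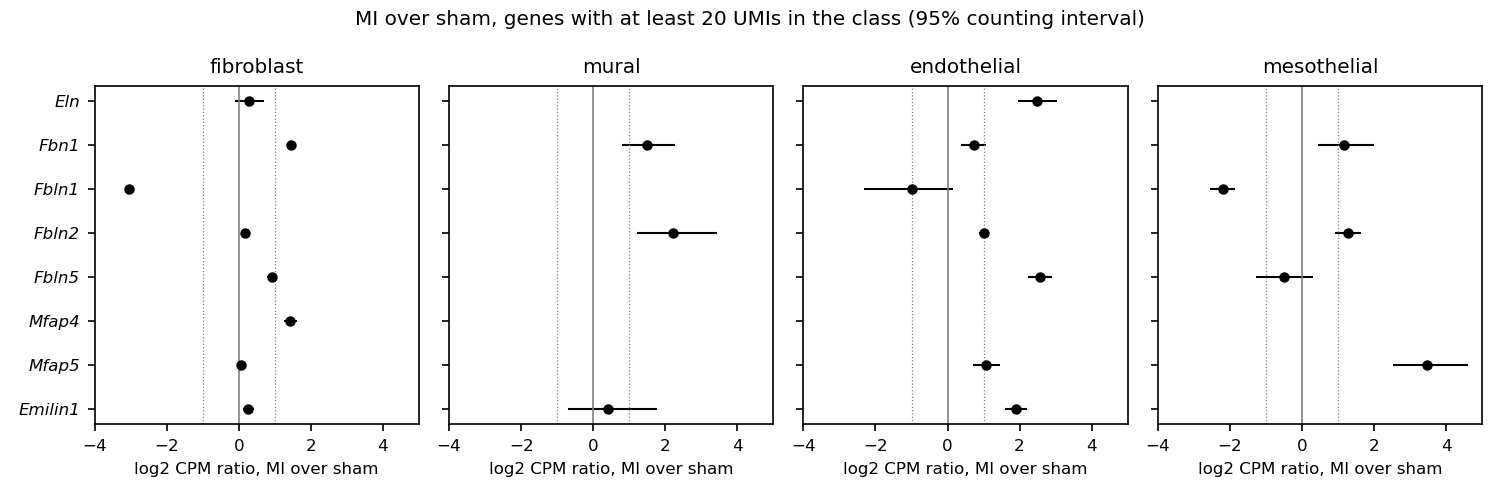
Log2 ratio of CPM in MI over sham (horizontal axis) for each gene with at least 20 UMIs in the class, with its 95% counting interval; the solid line marks equal levels and the dotted lines a 2-fold difference. Fbln1 lies left of the line in fibroblasts (-3.04) and mesothelial cells (-2.20), and in mural and endothelial cells the genes past 2-fold all lie to the right.

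Shares of cells in which Fbn1 or Fbln1 had a UMI followed the same directions once cells were thinned to 500 UMIs; no cell of these classes was shallower. Fbn1 was then found in 37.9% (36.1 to 39.7) of MI and 13.7% (12.2 to 15.4) of sham fibroblasts, against 91.3% and 33.7% before thinning. Fbln1 was found in 5.23% (4.43 to 6.11) and 29.1% (27.0 to 31.2), against 35.0% and 61.2% before thinning. In lymphocytes, with a median of 1285.5 UMIs in MI and 1288.5 in sham, the thinned shares were 0.758% and 0% for Fbn1 and 1.52% and 0% for Fbln1, where 0 of 44 sham cells allow up to 8.04%. At least 1 of the 8 genes was found in 83.8% of MI and 78.3% of sham fibroblasts, 15.9% (10.1 to 23.3) of MI lymphocytes and 2.27% (0.0575 to 12.0) of sham lymphocytes. The share with at least 1 of the 8 genes was thus far higher in fibroblasts than in lymphocytes of both libraries. This did not hold for every gene alone. The thinned Fbln1 share of MI lymphocytes (0.184 to 5.37) overlapped that of MI fibroblasts, while the Fbn1 intervals lay apart in both libraries. Eln levels overlapped too, at 24.5 CPM (22.3 to 27.0) in MI fibroblasts and 10.3 CPM (1.25 to 37.3) in MI lymphocytes.

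The genes also differed between subsets of fibroblasts within 1 library. MI fibroblasts were ranked by the share of UMIs from 6 contractile genes (Acta2, Tagln, Cnn1, Actg2, Myl9 and Tpm2), a marker of myofibroblasts, and split into 3 parts; the 938 cells of the top part were set against the 937 of the bottom part. This is a cut on a continuous score and not a division into types; the median contractile share was 0.738% and 0.0534% of UMIs. Eln stood at 12.2 CPM in the most and 38.4 CPM in the least contractile cells, a log2 ratio of -1.65 (-2.04 to -1.27). Fbln1 was at 48.9 and 175 CPM (-1.84, -2.02 to -1.65) and Mfap4 at 174 and 344 CPM (-0.98, -1.09 to -0.87). Emilin1 was somewhat higher in the most contractile cells, at 182 and 142 CPM (0.36, 0.22 to 0.50), and Fbn1, Fbln2, Fbln5 and Mfap5 differed by at most 0.25 (log2). Median UMIs were 6736.5 in the most and 4090.0 in the least contractile cells.

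A Wt1 UMI, the mRNA of a transcription factor of the epicardium, was present in 326 MI fibroblasts and 5 sham fibroblasts. In these MI cells Fbln5 stood at 83.4 CPM against 329 CPM in the MI fibroblasts without one, a log2 ratio of -1.98 (-2.17 to -1.79). Mfap4 was at 108 and 274 CPM (-1.35) and Fbn1 at 495 and 1030.0 CPM (-1.06), while Fbln1 was at 89.8 and 92.3 CPM. Emilin1 (-0.84, -1.02 to -0.66), Eln (-0.73, -1.21 to -0.29), Mfap5 (-0.52) and Fbln2 (-0.37) were lower too. Fbln1 did not differ beyond counting error (-0.04, -0.24 to 0.15). The share of all genes that differ between these subsets was not computed. Median UMIs were 7193.5 in the Wt1-positive cells and 5182 in the others, and whether depth plays a part was not tested. With the Wt1-positive cells left out of the comparison with sham, the ratios were 1.10 for Fbln5, 1.57 for Fbn1 and -3.03 for Fbln1. In that alternative, chosen after seeing the data, 3 genes in place of 2 are at least 2-fold higher in MI.

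MI fibroblasts with UMIs of at least 2 of 5 cell cycle genes (538 cells; Mki67, Top2a, Birc5, Cdk1 and Ccnb2) were set against the 1797 with none. Mfap4 stood at 100.1 and 311 CPM (log2 ratio -1.64, -1.78 to -1.49), Fbln1 at 51.1 and 114 CPM (-1.16) and Eln at 13.1 and 29.1 CPM (-1.15). Mfap5 (-0.72, -0.78 to -0.67), Fbln5 (-0.59), Fbn1 (-0.50) and Fbln2 (-0.27) were lower too, each beyond counting error. Emilin1 did not differ beyond counting error, at 161 and 166 CPM (-0.04, -0.16 to 0.09). Only 3 sham fibroblasts met this criterion. Cells with cycle genes had a median of 7498.5 UMIs and those with none 4691, and whether depth plays a part was not tested.

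In sham, 257 fibroblasts had UMIs of at least 2 of the adventitial genes Pi16, Dpp4 and Sema3c, which mark a fibroblast state of vessel sheaths, and 698 had none. Mfap5 stood at 1955 and 478 CPM (log2 ratio 2.03, 1.88 to 2.19), Fbn1 at 610 and 217 CPM (1.49, 1.24 to 1.75) and Fbln2 at 1901 and 872 CPM (1.13, 0.99 to 1.26). Fbln1 was lower in the adventitial cells, at 639 and 818 CPM (-0.36, -0.54 to -0.17), and Fbln5 was at 165 and 182 CPM. Mfap4 was higher in the adventitial cells (0.90, 0.32 to 1.48) and Emilin1 was lower (-0.45, -0.90 to -0.02). Eln did not differ beyond counting error (-0.93, -2.39 to 0.33). Microfibril genes and Fbln2 were thus the higher ones in this sham subset, and Fbln1 and Emilin1 were lower. Only 15 MI fibroblasts met the criterion; in them Mfap5 was at 1316 CPM against 1013 CPM in those with none, and Fbn1 at 609 against 924 CPM. Median UMIs of the sham cells were 1885 and 1289.

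**Figure D4:**
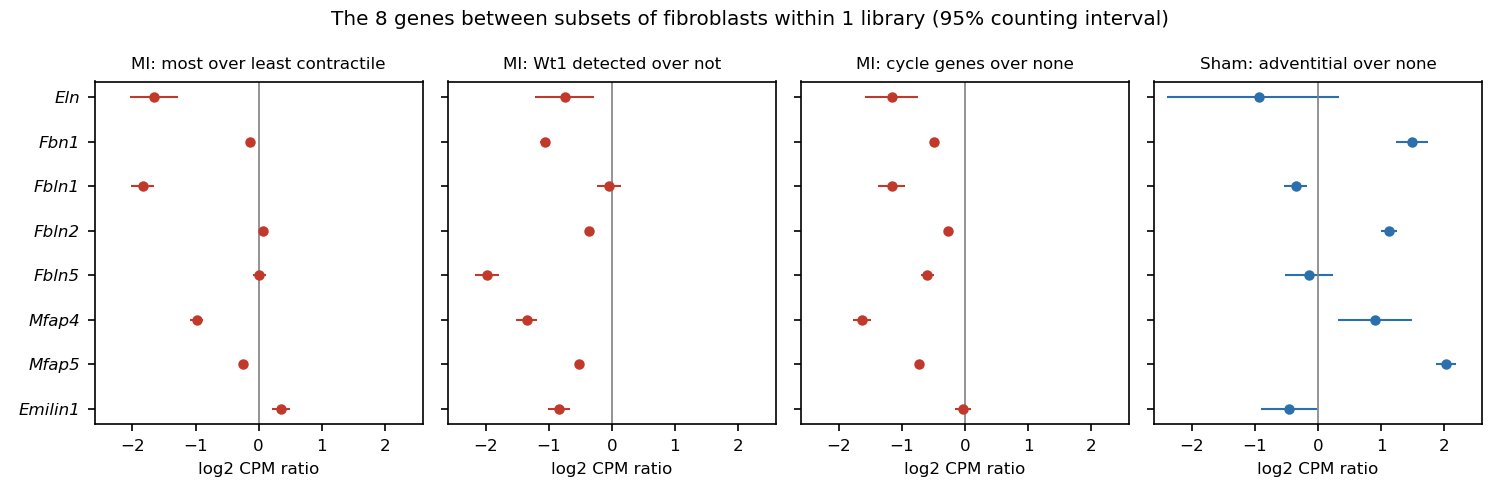
Log2 ratio of CPM (horizontal axis) of the 8 genes between subsets of fibroblasts of the same library, with 95% counting intervals: most over least contractile, Wt1 UMI over none and cell cycle genes over none in MI (red), and adventitial genes over none in sham (blue). Eln, Fbln1 and Mfap4 lie farthest left in the contractile (-1.65, -1.84 and -0.98) and cell cycle (-1.15, -1.16 and -1.64) comparisons. Mfap5, Fbln5, Fbn1 and Fbln2 also lie to the left in the cell cycle comparison, by less. Mfap5 lies farthest right in the adventitial one (2.03).

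In mural cells, Fbn1 and Fbln2 were higher in MI and the other genes were sparse. Only 3 of the 8 genes had at least 20 UMIs, of which 2 had at least 2-fold more in MI and 0 less, against 17.9% of 5873 genes higher and 20.9% lower; their median log2 ratio was 1.48 against -0.09 for all genes. Fbn1 had 530 CPM (482 to 582) in MI against 189 CPM (110 to 303) in sham, which is a log2 ratio of 1.48 (0.79 to 2.28), from 445 and 17 UMIs. Fbln2 stood at 416 CPM (373 to 462) and 89.1 CPM (38.5 to 176), a log2 ratio of 2.22 (1.23 to 3.44), from 349 and 8 UMIs. Emilin1 stood at 104 and 78.0 CPM, a log2 ratio of 0.41 (-0.69 to 1.77). MI lymphocytes stood at 36.2 CPM of Fbn1 and 124 CPM of Fbln2, below the MI mural levels. MI fibroblasts stood at 944 CPM of Fbn1 and 1552 CPM of Fbln2, above them. Fibroblast markers summed to 2736 CPM in MI and 568 CPM in sham mural cells, with 0 and 2 of 10 markers at 0. The mural markers summed to 5281 CPM in MI and 26243 CPM in sham. The part of fibroblast RNA in the mural ratios was not tested.

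Eln was nearly undetected in these mural cells, with 7 UMIs in MI and 0 in sham, where 3 counts equal 33.4 CPM. By their markers they were mostly pericytes: 97 MI cells and all 68 sham cells had more UMIs of Rgs5, Kcnj8 and Abcc9 than of the smooth muscle genes Myh11 and Cnn1, and 12 MI cells had more of the latter. These 12 cells held 5 of the 7 Eln UMIs, all in 1 cell, and 7 of the 16 Fbln5 UMIs. With the MI and sham mural cells of their shared cluster alone, an alternative chosen after seeing the data, the Fbn1 ratio was 1.54 and the Fbln2 ratio 2.18. With classes taken from clusters instead of the gate, Fbn1 was at 2.62 and Fbln2 at 0.59. Scaling by the median of ratios raises each mural ratio by 0.58, with 32.0% of all genes then higher and 9.45% lower. Sham mural cells also carried 2173 CPM of the 10 endothelial markers, against 368 CPM in MI, with 0 and 3 of these markers at 0; the part of this in the ratios was not tested.

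In endothelial cells summed as a class, Eln, Fbln5 and Emilin1 were several-fold higher in MI, and Fbln2 and Mfap5 about 2-fold. Groups of these cells by vessel genes differed and are given below. Of 7 genes with at least 20 UMIs, 5 had at least 2-fold more in MI and 0 at least 2-fold less, against 11.1% of 11579 genes higher and 14.9% lower; their median log2 ratio was 1.08 against -0.05 for all genes. Eln had 57.4 CPM (47.1 to 69.4) in MI against 10.2 CPM (7.31 to 13.8) in sham, which is a log2 ratio of 2.50 (1.96 to 3.05). Fbln5 stood at 152 CPM (135 to 171) and 25.6 CPM (20.9 to 31.0), a log2 ratio of 2.57 (2.24 to 2.91). Emilin1 stood at 127 CPM (111 to 144) and 34.0 CPM (28.6 to 40.2), a log2 ratio of 1.90 (1.59 to 2.21). For these 3 genes MI lymphocytes stood at 10.3, 10.3 and 31.0 CPM, below the MI endothelial levels.

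Fbln2 had 505 CPM (473 to 538) in MI against 251 CPM (236 to 267) in sham endothelial cells, which is a log2 ratio of 1.01 (0.88 to 1.14). Fbn1 stood at 68.6 and 41.5 CPM, a log2 ratio of 0.73 (0.38 to 1.07). The Fbn1 ratio was -0.35 after the lymphocyte level was subtracted (7 UMIs in MI and 0 in sham lymphocytes). Mfap5 stood at 65.4 CPM (54.4 to 78.1) and 31.0 CPM (25.8 to 37.0), a log2 ratio of 1.08 (0.71 to 1.45). Its MI level was below the 93.0 CPM (55.1 to 147) of MI lymphocytes (18 UMIs), with overlapping intervals, and above the 47.1 CPM (42.4 to 52.1) of MI macrophages. Subtracting the lymphocyte level leaves no measurable MI level and so no ratio. The part of free RNA in this ratio was not tested. Fbln1 was at 4.26 and 8.44 CPM (-0.99, -2.31 to 0.15), below the 15.5 CPM of MI lymphocytes, and Mfap4 gave 6 and 5 UMIs.

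With only endothelial cells of at most 1 fibroblast and at most 1 mural marker kept (185 MI and 1786 sham cells, chosen after seeing the data), 5 genes again had at least 2-fold more in MI. The ratios were then 3.34 for Fbln5, 2.06 for Mfap5, 1.65 for Eln, 1.39 for Fbln2 and 1.22 for Emilin1. Eln and Emilin1 were thus less far apart in these cells and Fbln5 farther. With called doublets kept, 3 genes had at least 2-fold more in MI and 1 at least 2-fold less.

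The MI endothelial cells fell mainly into 2 clusters, which differed in Eln and Emilin1. The cluster of 144 cells stood at 89.6 CPM of Eln and 202 CPM of Emilin1, and the cluster of 218 cells at 27.2 and 44.9 CPM. The first carried a median of 4 fibroblast markers and the second 1. Fbln5 was alike in both, at 150.1 and 156 CPM, and Fbln2 was at 417 and 589 CPM.

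Grouped by vessel genes, sham endothelial cells had most Fbln5 in arterial and most Mfap5 in endocardial cells. The 53 sham cells with at least 2 arterial genes (Gja4, Gja5, Sema3g, Bmx, Hey1) and no endocardial gene held 53 of the 103 sham endothelial Fbln5 UMIs. They stood at 382 CPM (286 to 499) of Fbln5, against 6.43 CPM (3.92 to 9.92) in the 1587 cells with at least 2 capillary genes (Cd36, Car4, Lpl, Rgcc), a log2 ratio of 5.89 (5.13 to 6.71). Of these arterial cells, 15 lay in the mural cluster and held 32 of the UMIs; the other 38 stood at 283 CPM (175 to 432). Arterial cells were also higher than capillary cells in Fbln2 (720.4 and 241 CPM, log2 ratio 1.58, 1.27 to 1.88) and Fbn1 (108 and 36.6 CPM, 1.56, 0.68 to 2.34). Both contrasts include the 15 arterial cells of the mural cluster and are not given without them.

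The 146 sham cells with an endocardial gene (Npr3 or Cytl1) and under 2 arterial genes held 65 of the 125 Mfap5 UMIs of sham endothelial cells. They stood at 182 CPM (140 to 232) of Mfap5, against 14.1 CPM in capillary cells, a log2 ratio of 3.69 (3.11 to 4.27). Eln (30.8 and 5.46 CPM; 2.50, 1.26 to 3.67) and Emilin1 (67.2 and 25.4 CPM; 1.40, 0.68 to 2.08) were higher in them too, while Fbln2 was lower (157 and 241 CPM; -0.62, -1.04 to -0.22). Set beside each other in sham, arterial cells were higher than endocardial cells in Fbln5 (382 and 11.2 CPM) and Fbln2 (720.4 and 157 CPM). Endocardial cells were higher in Mfap5, which gave 0 UMIs in arterial cells. The intervals of the other genes overlapped between these groups, among them Eln (14.4 CPM in arterial and 30.8 CPM in endocardial cells) and Emilin1 (57.6 and 67.2 CPM). A further 20 sham and 75 MI cells met both criteria and are in neither group.

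In MI these groups were closer together in Fbln5. The 43 arterial cells stood at 170 CPM (127 to 221), the 63 capillary cells at 127 CPM (88.7 to 177), the 53 endocardial cells at 149 CPM (99.1 to 215) and the 155 cells with none of these genes at 186 CPM (149 to 229). The intervals of all 4 groups overlap. Set against sham, the Fbln5 log2 ratio was -1.17 (-1.74 to -0.60) in arterial cells. Outside the mural cluster, an alternative chosen after seeing the data, it was -0.71 (-1.46 to 0.10), from 42 MI cells at 173 CPM and 38 sham cells at 283 CPM, which does not exceed counting error. Fbln5 was higher in MI in capillary (4.31, 3.48 to 5.18) and endocardial cells (3.73, 2.22 to 5.71). Emilin1 was higher in MI in capillary (1.01, 0.07 to 1.84) and endocardial cells (1.10, 0.25 to 1.95). Its ratio did not exceed counting error in arterial cells (-0.03, -1.30 to 1.38) or in cells with none of these genes (0.28, -0.53 to 1.13). Of the MI endothelial Emilin1 UMIs, capillary cells held 5.88%, endocardial 11.3%, arterial 7.56% and cells with none of these genes 14.3%. The rest lay in the 75 MI cells with both arterial and endocardial genes, whose Emilin1 ratio is not given here. Mfap5 of endocardial cells was lower in MI, at 31.9 CPM against 182 CPM in sham (-2.51, -4.01 to -1.31), from 6 and 65 UMIs, and the MI level was below that of MI lymphocytes. Eln remained highest in MI in cells with endocardial genes, at 85.2 CPM (48.7 to 138), against 7.28 CPM in capillary cells. The 75 MI cells with both arterial and endocardial genes stood at 103 CPM (79.5 to 131) and held 65 of the 108 MI endothelial Eln UMIs. The 20 such sham cells stood at 79.2 CPM (21.6 to 203). Within groups, the Eln ratio of MI over sham was 1.47 in endocardial cells and 1.31 in cells with none of these genes. It did not exceed counting error in capillary (0.41) and arterial cells (-0.61). The part of the mix of groups in the class ratios was not tested.

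In mesothelial cells, Mfap5, Fbln2 and Fbn1 were higher in MI and Fbln1 was lower. Of 5 genes with at least 20 UMIs, 3 had at least 2-fold more in MI and 1 at least 2-fold less, against 16.2% of 5385 genes higher and 13.0% lower; their median log2 ratio was 1.18 against 0.04 for all genes. Mfap5 had 560 CPM (501 to 625) in MI against 50.4 CPM (23.0 to 95.7) in sham, which is a log2 ratio of 3.48 (2.53 to 4.62). Fbln2 stood at 998 CPM (919 to 1083) and 414 CPM (325 to 520.1), a log2 ratio of 1.27 (0.92 to 1.64). Fbln1 stood at 212 CPM (176 to 253) and 974 CPM (835 to 1130.1), a log2 ratio of -2.20 (-2.54 to -1.86), the same direction as in fibroblasts.

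Fbn1 stood at 216 and 95.2 CPM in mesothelial cells, a log2 ratio of 1.18 (0.44 to 2.00), and Fbln5 at 82.8 and 118 CPM (-0.51, -1.27 to 0.31). Eln gave 10 and 1 UMIs, Mfap4 3 and 2, and Emilin1 10 and 0. In the 57 MI and 71 sham mesothelial cells with at most 4 fibroblast markers, chosen after seeing the data, Mfap5 was at 4.38, Fbn1 at 1.60, Fbln2 at 1.20 and Fbln1 at -2.61. Fibroblast markers summed to 6528 CPM in MI and 4932 CPM in sham mesothelial cells, with 0 and 1 of 10 markers at 0, and Mfap5 in MI fibroblasts stood at 1087 CPM. Scaling by the median of ratios raises each mesothelial ratio by 0.24, with 22.4% of all genes then higher and 8.95% lower.

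The other genes of the elastic fibre system were taken from 7 lists with 45 genes, of which 41 had at least 20 UMIs in fibroblasts. Of these, 15 had at least 2-fold more in MI and 10 at least 2-fold less, against the 13.2% and 20.5% of all genes given above, and their median log2 ratio was 0.20. Genes of the same list often differed in direction.

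Of 5 lysyl oxidase genes, whose products crosslink elastin and collagen, 4 were at least 2-fold higher in MI fibroblasts. Lox stood at 1511 CPM in MI and 38.4 CPM in sham (log2 ratio 5.30, 5.04 to 5.57), Loxl3 at 205 and 35.1 CPM (2.55), Loxl4 at 4.07 and 0.993 CPM (2.04, from 72 and 3 UMIs) and Loxl2 at 511 and 168 CPM (1.61). Loxl1, the member most closely tied to elastin, was at 338 and 292 CPM (0.21, 0.11 to 0.31). The large differences were thus in genes other than Loxl1. In the other classes 4 of 4 measured genes of this list were at least 2-fold higher in mural and in endothelial cells, and 2 of 3 in mesothelial cells. Over all genes, 17.9%, 11.1% and 16.2% were at least 2-fold higher in these classes. Mural Lox and Loxl1 gave 0 sham UMIs, so their ratios are bounds. Lox stood at 211 CPM in MI mural, 108 in MI endothelial and 464 in MI mesothelial cells, below MI fibroblasts. The part of fibroblast or free RNA in these counts was not tested.

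Of 7 microfibril and fibulin relatives, 3 were higher and 1 lower in MI fibroblasts. Fbn2, the fibrillin known mainly from development, stood at 72.7 and 4.96 CPM (3.87, 3.14 to 4.71), Mfap2, a close relative of Mfap5, at 212 and 41.0 CPM (2.37) and Efemp2, which links lysyl oxidase to tropoelastin, at 149 and 70.5 CPM (1.08). Efemp1, a fibulin also counted among the short fibulins, stood at 8.31 and 167 CPM (-4.33, -4.60 to -4.06). Efemp1 and Fbln1 were therefore the 2 fibulin genes with at least 2-fold less mRNA in MI. Of the EMILIN relatives, 2 of 2 measured genes were lower, with Emilin2 at 18.0 and 75.4 CPM (-2.07); Mmrn2, an endothelial gene, gave 31 and 16 UMIs.

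Latent TGF-beta binding proteins, which sit on microfibrils, went both ways, with 1 of 4 higher and 2 lower in MI fibroblasts. Ltbp2 stood at 247 and 14.2 CPM (4.12, 3.69 to 4.59), Ltbp4, which also serves elastic fibre assembly, at 95.5 and 1035 CPM (-3.44, -3.52 to -3.35), and Ltbp1 at 48.9 and 189 CPM (-1.95). Ltbp4 was lower in mural (-3.23), mesothelial (-3.36) and endothelial cells (-1.04) as well. The ADAMTS and ADAMTS-like partners of microfibrils were split with 4 of 9 higher and 4 lower. Adamts10 (36.8 and 159.5 CPM, -2.11), Adamtsl2 (-1.72), Adamtsl4 (-1.89) and Adamtsl5 (-1.47) were lower; Adamts17 (3.52, 0.99 to 8.84, from 67 and 1 UMIs), Thsd4 (1.61), Adamts6 (1.31) and Adamtsl1 (1.18) were higher at low counts.

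Among 8 genes of enzymes able to degrade elastin, 3 of 5 measured were higher in MI fibroblasts and 0 lower. Mmp14 stood at 1205 and 158 CPM (2.93, 2.80 to 3.07), Ctsk at 130 and 44.7 CPM (1.54) and Ctss, a gene of macrophages and one of their gate markers here, at 36.1 and 4.63 CPM (2.96). The macrophage elastase Mmp12 gave 11 and 1 UMIs in fibroblasts. Summed macrophage markers, Ctss itself among them, were 149 CPM in MI and 112 CPM in sham fibroblasts, with 0 of 10 at 0 in both. This sum is thus no separate measure of macrophage RNA beside Ctss, and the part of such RNA was not tested. Of 9 receptor complex and integrin genes, 8 stayed within 2-fold and Itga8, the alpha subunit of an RGD-binding integrin, was lower, at 4.30 and 29.4 CPM (-2.78, -3.24 to -2.32).

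**Figure D5:**
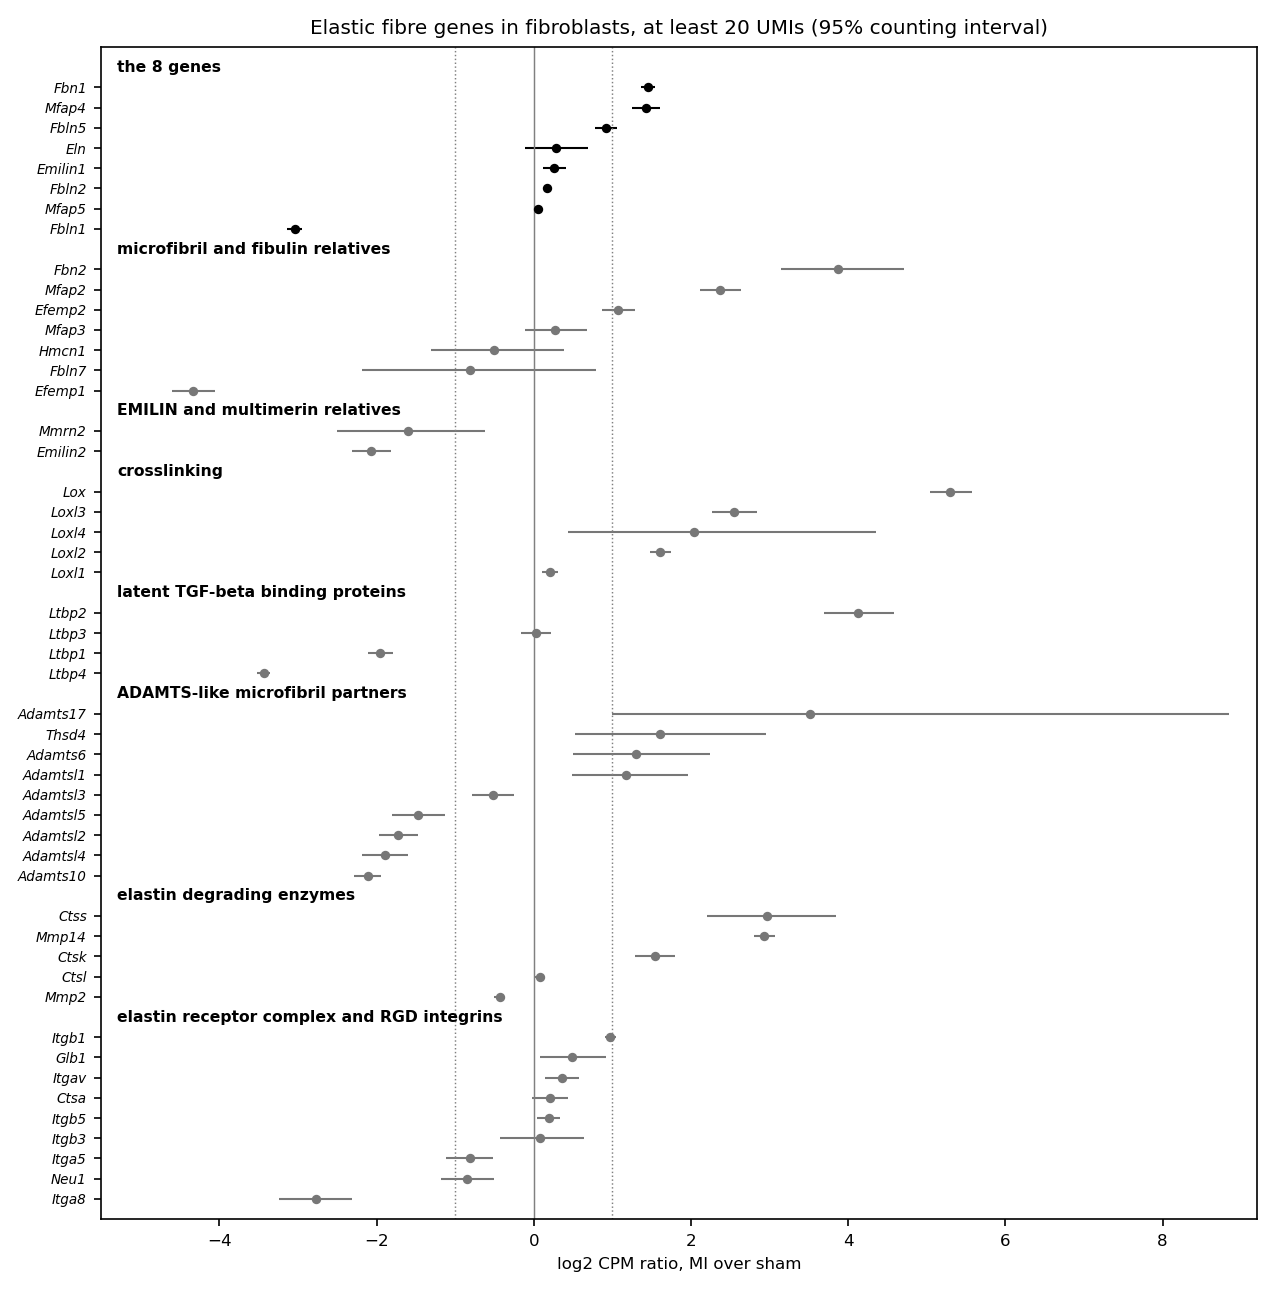
Log2 ratio of CPM in MI over sham fibroblasts (horizontal axis) with 95% counting intervals for the 8 genes (black) and 41 other elastic fibre genes (grey), grouped by list; dotted lines mark a 2-fold difference. Lox (5.30), Ltbp2 (4.12) and Fbn2 (3.87) lie farthest right among genes with narrow intervals, and Efemp1 (-4.33), Ltbp4 (-3.44) and Fbln1 (-3.04) farthest left.

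The genes most like each of the 8 were found by Pearson correlation of log2(CPM + 10) over 12 sums of a class in a library, among 10187 genes with at least 200 UMIs. The sums of a library share its depth and its free RNA, so these values are a description. Fbln1 was most like Abi3bp (r = 0.970), C3 (0.961) and Clip4 (0.947), and Fbln5 most like Ltbp3 (0.954), Mtch1 (0.921) and Tmem150a (0.906). Mfap5 was most like Fndc1 (0.927), Bmper and Cpxm1, and Mfap4 most like Itga11 (0.915), Thbs4 and Nkd2. Fbln2 was most like Bmp1 (0.938), which encodes a protease that matures matrix proteins, Fam114a1 and Dnajc1, and Fbn1 most like Yipf5 (0.934), Lhfp and the clone-named RP23-103I12.13. Emilin1 was most like Yars (0.891), F2r and Acyp2, and Eln most like Pcdh7 (0.905), Cyp1b1 and Txndc5.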

How the data were processed

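The authors deposited 1 table per library with raw counts of UMIs for each gene in each barcode; per the submitters' processing notes the genome build was mm10 and the tool Seurat was used. No source used here gives the aligner, counter or annotation. Every barcode had at least 500 genes with a UMI. Barcodes over 25% mitochondrial UMIs (114 MI, 34 sham) and doublets called with scrublet in scanpy 1.11.5 (147 MI, 1.74%; 332 sham, 5.27%) were removed. Cells were gated on the number of distinct markers, set from marker counts without the 8 genes; 812 MI and 437 sham cells stayed ungated, and 315 MI and 189 sham fibroblasts lay at the edge of their gate. UMIs of a class were summed and given as CPM with exact Poisson intervals. Ratios of MI over sham have exact conditional binomial intervals, and shares exact Clopper-Pearson intervals. Ratios were given for genes with at least 20 UMIs in a class over both libraries, and higher or lower counts use a 2-fold limit. A class at 0 was set to 3 counts. Clusters for comparison came from leidenalg 0.10.2 over both libraries, without integration. Scripts ran on Python 3.11.15 with pandas 2.3.3, scipy 1.17.1, numpy 2.4.6 and matplotlib 3.10.9. The ratio step was tested on simulated data. All 8 genes were named, with other genes from 7 lists where at least 2-fold changed in fibroblasts with at least 50 UMIs, plus the 3 most alike genes by pattern (mitochondrial, ribosomal, Gm and Rik genes left out); Loxl1, Mmp12 and Mmrn2 were named after their values were seen. The 8 genes, lists and rules were chosen with earlier results of these data known. Alternatives were stricter gates, clusters, doublets kept, another scaling, barcodes ending in N (317 MI, 671 sham) left out, a mitochondrial limit of 10%, equal weight per cell, the lymphocyte level subtracted, other UMI minimums and thinning to 1000 UMIs.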

Additional observations from a re-analysis of the deposited data

How the results depend on the processing

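Fibroblast counts of genes past 2-fold stayed within 1.5 times under the alternatives run; their median of 0.27 was 0.73 with median-of-ratios scaling and 0.025 with the lymphocyte level subtracted. In mural cells, classes from clusters gave a median of 0.59 with 1 gene higher and 1 lower. With no minimum of UMIs the mural median was -1.02, with 4 genes counted as lower. Of these, Eln (7 UMIs in MI and 0 in sham) is a lower bound set by the floor of 3 counts and no measured decrease. Fbln1 (3 and 2 UMIs), Mfap4 (3 and 1) and Mfap5 (12 and 3) did not exceed counting error. In endothelial cells, 3 genes were higher with doublets kept (1 lower), at a mitochondrial limit of 10%, and with the lymphocyte level subtracted (2 lower, Mfap5 and Fbln1, both set by the floor of 3 counts; median 0.79). For Mfap5 that subtraction leaves no MI count; the -4.28 computed from the floor is no measured ratio. In these cells 1 was lower with cells weighted equally, and the median was 1.55 with clusters and 1.49 with a minimum of 50 UMIs. In mesothelial cells, 2 were lower with no minimum. Of all single-gene ratios under these settings, 182 stayed within their counting interval and 42 moved out of it. A further 1 reversed, the floor value of Mfap5 in endothelial cells. Of the ratios that had been within 2-fold, 6 changed sign, 5 with the lymphocyte level subtracted and Mfap5 in fibroblasts with clusters. Shares of cells, thinned to 1000 UMIs, were higher or lower with that depth. Classes from clusters gave no mesothelial value, since no MI cluster was named so. No paired analysis was possible because each group is 1 library. Counting intervals do not cover differences between hearts, operations, pooling or library preparation, which cannot be told apart from the effect of MI. Depth limits Eln and Mfap4 outside fibroblasts, and sham mural and mesothelial cells.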
